A study of Mus musculus with 2 samples.

Results

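The Notch genes described here are 4 transcriptional targets (Hes1, Hes5, Hey1 and Dtx1), 4 receptors (Notch1 to Notch4) and 2 ligands (Jag2 and Dll1). Every probe set that the platform annotation paired with exactly 1 of these symbols was taken, which gave 15 probe sets for 10 genes, out of 12418 probe sets and 8251 named genes on the array. The samples were total RNA of cerebral cortex from 2 genotypes of mice aged 6 months, presenilin conditional double knockout (PS cDKO) and control, each hybridised to 1 oligonucleotide array. The labels give neither the alleles of the 2 genotypes, nor whether RNA of 1 animal or of a pool was hybridised, nor sex, strain or batch. In the published line of this name, Cre under the αCaMKII promoter removes a floxed presenilin gene from excitatory forebrain neurons after birth, in mice that lack the other presenilin gene in all cells. Glia and vessel cells of that line keep a working presenilin gene.

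Notch receptors are single-pass membrane proteins that bind Delta-like and Jagged ligands on neighbouring cells. Ligand binding exposes the receptor to ADAM proteases and then to γ-secretase, whose catalytic subunit is presenilin. The freed intracellular domain enters the nucleus, joins the DNA-binding protein RBPJ and switches on genes of the Hes and Hey families. In the developing cortex the pathway keeps neural progenitors from differentiating, and in the adult brain its receptors are found in neurons, astrocytes, vessel cells and neural stem cells. The comparison asks whether transcripts of the receptors and ligands and those of the targets differed between the genotypes, and whether the groups moved apart.

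To show what the targets have in front of them, the 250 bases before the annotated start are given for Hes5, the classic RBPJ-dependent target, and for Dtx1, which had the lowest ratio of the 10 Notch probe sets read on both arrays. Both are RefSeq sequences of the build GRCm38.p6, read along the gene's own strand. Capitals mark the RBPJ core motif TGGGAA or its reverse complement TTCCCA. The Hes5 window is chr4:154960673-154960922 on the plus strand, and the Dtx1 window is chr5:120711670-120711919 on the minus strand.
Hes5: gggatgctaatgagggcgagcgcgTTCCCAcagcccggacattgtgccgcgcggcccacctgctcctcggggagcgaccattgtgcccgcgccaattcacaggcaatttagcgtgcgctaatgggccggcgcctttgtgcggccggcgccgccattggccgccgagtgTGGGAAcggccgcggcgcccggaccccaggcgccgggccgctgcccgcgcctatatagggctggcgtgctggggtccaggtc
Dtx1: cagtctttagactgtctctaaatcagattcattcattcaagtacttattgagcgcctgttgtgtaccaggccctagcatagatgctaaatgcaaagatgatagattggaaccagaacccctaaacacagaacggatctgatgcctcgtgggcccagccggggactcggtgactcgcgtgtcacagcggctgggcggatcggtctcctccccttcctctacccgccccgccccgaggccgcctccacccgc
The Hes5 window held 2 matches, 1 on each strand. That on the gene's strand ran from 82 to 77 bases before the start, and the other from 226 to 221 bases before it. Both lay within the longer form GTGGGAA or its reverse complement. The Dtx1 window held 0 matches. Of 32851 promoter windows of the same length, 21.6% held the core on either strand and 5.42% the longer form. The windows of Notch1, Notch2, Notch3, Notch4, Jag2 and Dll1, the last with 2 annotated starts, held 0. A match in these letters is a description and does not show that RBPJ binds there.

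The values are linear array intensities as deposited, 1 per probe set and array. For the log2 ratio, PS cDKO over control, the PS cDKO array was scaled by 0.034 on the log2 scale, so that the median ratio of the brighter probe sets was 0. Intensities under a floor of 232, the 40th percentile of both scaled arrays, were not read as levels. A probe set above this floor in both genotypes is called measured. Of the 15 Notch probe sets 10 were measured, 1 for each gene, and the other 5 lay below the floor in both genotypes. With 1 array per genotype there is no replicate, so no SD, no p-value and no test of any difference below. The nearest thing to an error is the disagreement between probe sets of the same gene: over 749 genes with a measured pair, these differences gave an SD of 0.21 for the log2 ratio of 1 probe set. Variation between animals is not in that figure. Across all 7091 measured probe sets the ratio had a median of 0.0061 and a robust SD of 0.24.

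The presenilin gene Psen2 gave 94.9 in the PS cDKO and 105 in the control, both below the floor, so it does not check the labels. Neuronal markers were read to see whether neuronal RNA was present, which cannot tell cortex from other brain regions. All 8 neuronal markers on the array were above the floor on at least 1 array, among them Snap25, a vesicle fusion protein, at 3548 in the PS cDKO and 4705 in the control.

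All 4 targets gave a lower signal in the PS cDKO, with a median log2 ratio of -0.17, whereas 5 of the 6 receptors and ligands gave a higher one, with a median of 0.17. The medians differed by -0.35 on the log2 scale, targets minus receptors and ligands. Among all measured probe sets 49% were lower and 51% higher. The groups overlapped, since the ligand Jag2 had a lower ratio than the targets Hes1 and Hes5. Fewer cells of a type and less RNA per cell cannot be told apart in such bulk tissue.

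Dtx1 encodes Deltex, a ubiquitin ligase that binds the intracellular part of Notch and is itself induced by Notch. Its probe set read 653 in the PS cDKO and 874 in the control. It was thus 1.31-fold lower in the PS cDKO, and the log2 ratio of -0.39 lay at the 5.80th percentile of all measured probe sets. Hey1 encodes a basic helix-loop-helix repressor that acts downstream of Notch, best known in vessels and heart. It read 505 in the PS cDKO and 630.3 in the control, 1.22-fold lower in the PS cDKO, at percentile 12.03. These 2 were the only probe sets among the 10 that differed by at least 1.2-fold downward. By the same limit 14% of all measured probe sets were lower, and 13.4% of the 1772 whose signal was in the same range as that of Dtx1 and Hey1.

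Hes1 encodes the repressor through which Notch holds back neuronal differentiation. It read 693 in the PS cDKO and 738 in the control, a log2 ratio of -0.057. Hes5, a sister repressor prominent in neural progenitors and astrocytes, read 439 in the PS cDKO and 464 in the control, a log2 ratio of -0.046. Both differences were a fraction of the probe set SD, and both ratios lay near the middle of the distribution, at the 39.9th and 41.4th percentiles. The larger differences among the targets were thus those of Dtx1 and Hey1, and the 2 Hes genes differed little between the arrays. The target median is the midpoint of Hes1 and Hey1.

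**Figure D1:**
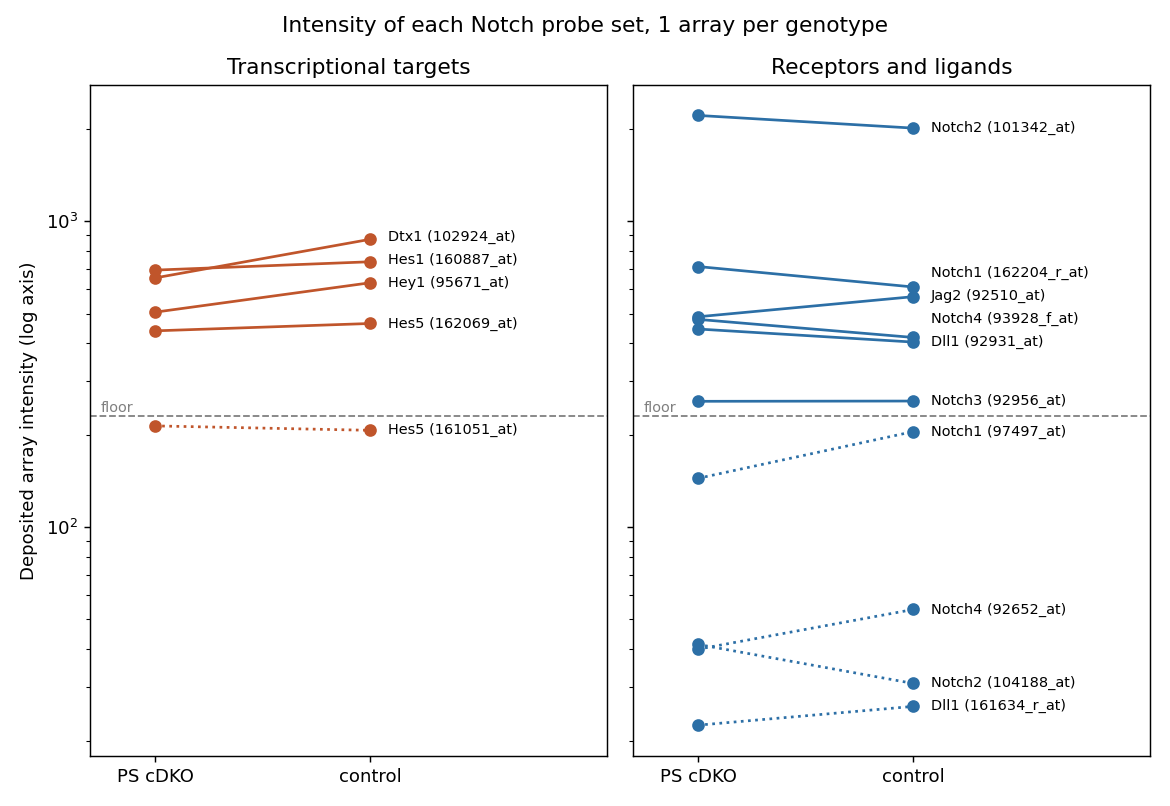
Deposited intensity (log axis) of each of the 15 probe sets on the PS cDKO array (left point) and the control array (right point), 1 array each, with solid lines for probe sets above the floor of 232 on both arrays and dotted lines for those below. Dtx1 and Hey1 have the steepest solid lines, and the 5 dotted lines are second probe sets of genes that also have a solid one.

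Notch2, a receptor known from glia and progenitors, had a probe set at the 98.4th percentile of intensities in the PS cDKO and the 97.4th in the control. It read 2220.1 in the PS cDKO and 2018 in the control, a log2 ratio of 0.17. Notch1, the receptor most studied in neural progenitors and also present in adult neurons, read 712 in the PS cDKO and 610.4 in the control, a log2 ratio of 0.26 at the 86.5th percentile. Notch4, a receptor of the vascular endothelium, read 478 in the PS cDKO and 417 in the control, a log2 ratio of 0.23. All 3 were higher in the PS cDKO, by 1.13-fold, 1.19-fold and 1.17-fold. The Notch1 and Notch4 probe sets carry the suffixes _r and _f in their identifiers, which on this type of array mark probe sets chosen under relaxed rules or shared within a gene family.

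Notch3, the receptor of vascular smooth muscle and pericytes, read 258 in the PS cDKO and 259 in the control. Its log2 ratio of 0.031 was the smallest in size of the 10, and it turned to -0.0028 with intensities as deposited, -0.041 with quantile normalization and -0.040 after a lowess fit, so that no direction can be given. Without Notch3's direction, 4 of the 6 receptors and ligands were higher.

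The 2 ligands went opposite ways. Dll1, a Delta-like ligand that activates Notch on the adjoining cell, read 445 in the PS cDKO and 403 in the control, a log2 ratio of 0.18. Jag2, a ligand of the Jagged class, read 488 in the PS cDKO and 568 in the control, a log2 ratio of -0.18. The sizes, 1.13-fold higher and 1.14-fold lower, were alike and within the probe set SD of 0.21. None of the 10 Notch probe sets was at least 1.2-fold higher, against 12.9% of all measured probe sets, and none differed by 1.5-fold, a size that 1.06% of measured probe sets reached upward and 1.11% downward.

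**Figure D2:**
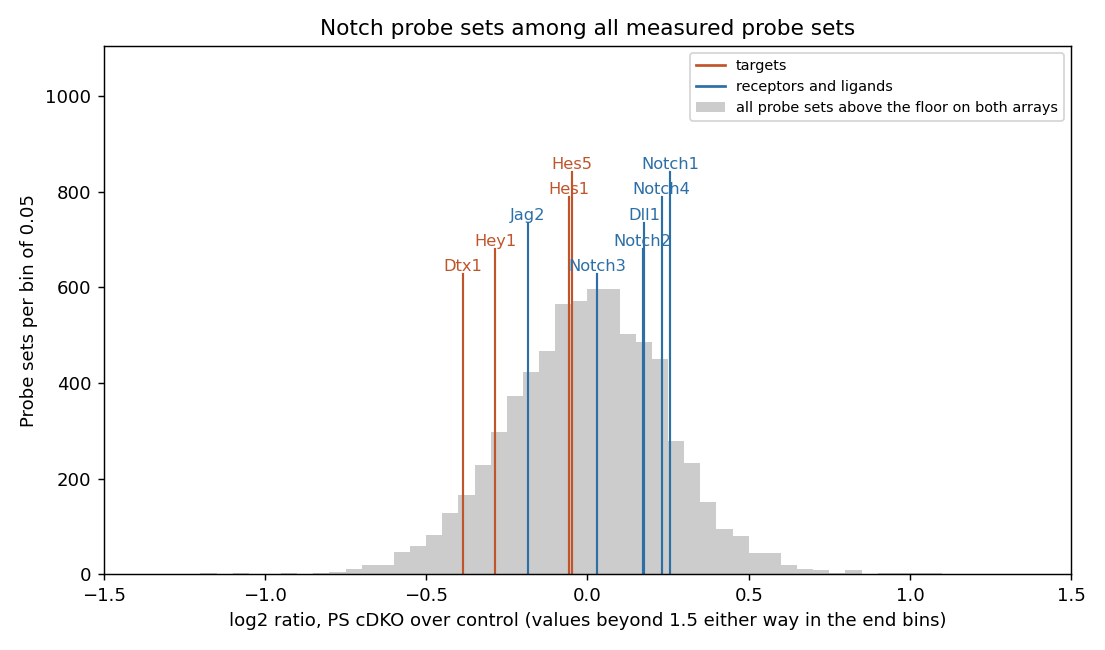
Log2 ratio, PS cDKO over control, of the 10 Notch probe sets above the floor (coloured lines, heights arbitrary) on the distribution of all 7091 such probe sets (grey bars, probe sets per bin). The Notch lines span -0.39 to 0.26, within the bulk of the grey distribution, with Dtx1 and Hey1 at its lower side and Notch1 and Notch4 at its upper side.

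For 5 of the 10 genes a further probe set gave a reading below the floor, so its ratio has little weight, but it is the only second reading of the same RNA. For Notch1 it was 145 in the PS cDKO and 206 in the control, a log2 ratio of -0.47 with no floor. For Notch4 it was 39.97 in the PS cDKO and 53.9 in the control, a log2 ratio of -0.40. For Dll1 it was 22.6 in the PS cDKO and 26.0 in the control, a log2 ratio of -0.17. Each of these 3 pointed against the brighter probe set of its gene. For Notch1 and Notch4 the dimmer probe set is the one without a suffix, and the brighter one carries _r or _f. For Dll1 the dimmer one carries _r.

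For Hes5 the dimmer probe set read 215 in the PS cDKO and 208 in the control, a log2 ratio of 0.082, also against the brighter one. For Notch2 it read 41.5 in the PS cDKO and 30.9 in the control, a log2 ratio of 0.46 in the same direction as the brighter one. So 1 of 5 genes had the same sign in both probe sets. Over all 666 genes with 1 probe set above and 1 below the floor 55.6% had the same sign, and over the 749 genes with a pair above the floor 57.8% did. Notch3, Jag2, Hes1, Hey1 and Dtx1 have a single probe set each, so Dtx1 and Hey1 have no second reading.

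**Figure D3:**
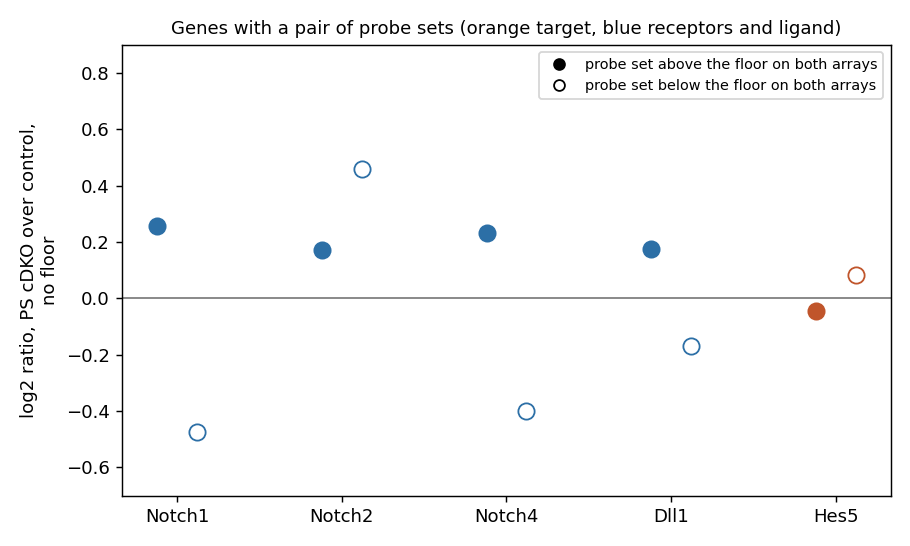
Log2 ratio, PS cDKO over control, with no floor, for the 5 genes with a pair of probe sets: filled circles are measured probe sets, open circles those below it. The open circle lies on the other side of 0 from the filled one for Notch1, Notch4, Dll1 and Hes5, and on the same side for Notch2.

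Another floor cannot change the ratio of a probe set that stays above it, so only the 3 other scalings bear on single ratios, and leaving the intensities as deposited shifts all of them alike. Under these scalings Dtx1 lay between -0.42 and -0.38 on the log2 scale and Hey1 between -0.32 and -0.29. Notch1 lay between 0.22 and 0.25, and Notch2 between 0.14 and 0.27, the higher Notch2 value after a lowess fit. Settings that let dim probe sets in, or took suffixed ones out, narrowed the gap between the groups: with no floor the medians were -0.057 for the targets and 0.10 for the receptors and ligands, a difference of -0.16.

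**Figure D4:**
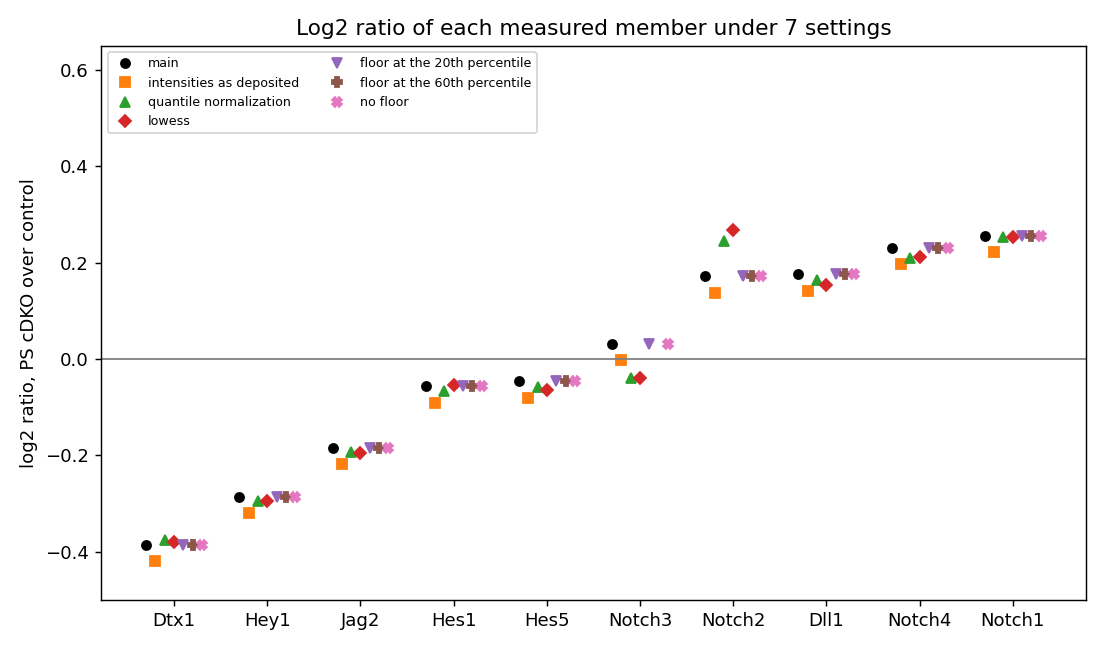
Log2 ratio, PS cDKO over control, of the 10 measured Notch probe sets, ordered by the main value, under 7 settings of scaling and floor (symbols). Notch3 is on both sides of 0, and each of the other 9 keeps its side; Notch3 has no point with the floor at the 60th percentile, where it is below the floor.

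A list of other genes of the pathway had 32 on the array, of which 22 were measured. Of these 10 were higher and 12 lower, with a median log2 ratio of -0.023, close to the median of 0.012 over all 5885 genes above the floor on at least 1 array. At 1.2-fold or more 2 were lower and 0 higher, against 12.9% lower and 12.5% higher of those 5885. The 2 were Fbxw7 and Rfng. Fbxw7, the ubiquitin ligase subunit that marks the Notch intracellular domain for degradation, read 315 in the PS cDKO and 476 in the control, 1.47-fold lower in the PS cDKO. Rfng, radical fringe, a glycosyltransferase that modifies Notch receptors, read 839 in the PS cDKO and 1078 in the control, 1.26-fold lower.

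By role, the 4 measured genes of receptor shedding and γ-secretase were higher by small amounts. They were Adam10 and Adam17, the sheddases, with log2 ratios of 0.19 and 0.13, and the γ-secretase subunits Aph1a and Psenen, with 0.17 and 0.12. All 3 fringe genes (Lfng, Mfng and Rfng) and all 4 measured genes of endocytosis and turnover (Numb, Itch, Fbxw7 and Nedd4) were lower. Over the same 5885 genes 51.9% were higher and 48.1% lower, and apart from Rfng and Fbxw7 none of these reached 1.2-fold. Numb was lower only as a mean, since its 2 measured probe sets gave log2 ratios of -0.14 and 0.053. Rbpj itself, chosen after its values were seen, read 190.1 in the PS cDKO and 206 in the control, below the floor on both arrays. Of further Hes family and candidate target genes, 3 of 5 measured were higher and 2 lower, with Hes2 at 0.15 and Fabp7, a lipid-binding protein of radial glia, at -0.037. Adam10, Adam17, Hes2 and Fabp7 were also chosen after their values were seen.

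**Figure D5:**
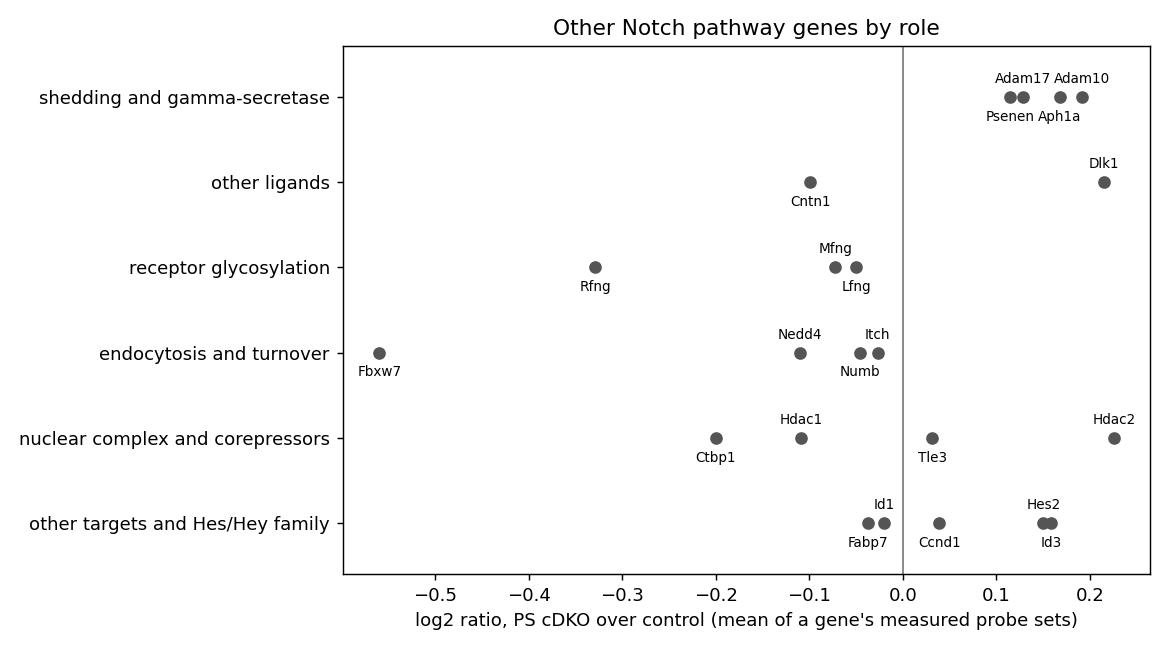
Log2 ratio, PS cDKO over control, of the 22 measured genes of the wider pathway (points), by role down the page. Fbxw7 at -0.56 and Rfng at -0.33 lie apart to the left, and the other genes lie between -0.20 and 0.23.

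Marker lists of the cell types in cortex were read on the same arrays. For endothelial cells, where Notch4 and Hey1 are known to be active, 6 of 11 markers were measured, 3 higher and 3 lower, with a median log2 ratio of -0.032, and Vwf was above the floor in the PS cDKO only. Their summed intensity over all probe sets was 4599 in the PS cDKO and 4650.2 in the control. All marker sums here are of intensities as deposited, without the scaling of 0.034 that the ratios include. That scaling is larger than the difference between the 2 endothelial sums, so these give no direction. Cldn5, a tight junction protein, was 1.35-fold lower, but its PS cDKO intensity of 230.8 as deposited passed the floor only after scaling. No other measured endothelial marker reached 1.2-fold. Log2 ratios were 0.14 for Kdr, 0.044 for Eng, 0.0059 for Flt1, -0.070 for Slc2a1 and -0.11 for Tie1. Pecam1, Tek, Cdh5 and Abcb1a were below the floor on both arrays. For mural cells, where Notch3 is active, 4 of 7 markers were measured, 2 higher and 2 lower, with sums of 2190.1 in the PS cDKO and 2257 in the control, and with Pdgfrb, Acta2 and Myh11 below the floor.

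Of 7 measured neuronal markers 5 were lower and 2 higher, and Map2 was above the floor in the control only. The list had a summed intensity of 13013 in the PS cDKO and 15884 in the control. Nrgn, a postsynaptic calmodulin-binding protein, was 1.49-fold lower. Of 8 measured astrocyte markers 5 were higher, with sums of 18135 in the PS cDKO and 15753 in the control, Gfap being 4.68-fold higher. Without Gfap the astrocyte sums as deposited were 14627 in the PS cDKO and 15107 in the control. These sums lack the scaling that the ratios include, so no direction is given for them. Log2 ratios were 0.53 for Aqp4, 0.55 for Gja1, 0.20 for Slc1a2 and 0.075 for S100b. They were -0.25 for Aldoc, -0.11 for Glul and -0.065 for Ndrg2. Of the 9 astrocyte markers on the array Fgfr3 was below the floor. All 6 measured microglial markers were higher, with sums of 4560.3 in the PS cDKO and 3067 in the control, while Aif1 was below the floor. Of 3 measured oligodendrocyte markers 1 was higher and 2 lower, with sums of 7837 in the PS cDKO and 8977 in the control, and Mog and Cnp below the floor. Of 2 measured choroid plexus markers 1 was higher and 1 lower, with sums of 1761 in the PS cDKO and 2111 in the control, and Kl below the floor. The part of the differences in neuronal, Gfap and microglial signal in the Notch ratios was not tested.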

How the data were processed

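The authors deposited array intensities on a linear scale, 1 column for PS cDKO and 1 for control. The sources used here do not say how these were computed or scaled, and 18 of the PS cDKO and 13 of the control intensities are negative. The median intensity was 305 in the PS cDKO and 299.7 in the control. Probe sets were named by a platform annotation that can be old: 10829 had 1 symbol, 396 several and 1193 none. All 10 Notch genes matched a RefSeq table of the assembly GRCm38.p6 by gene ID; Hes1 and Hey1 were not in the promoter table.

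The PS cDKO array was scaled to a median log2 ratio of 0 over probe sets brighter than the array median in both genotypes. A floor was then set and log2 taken. A gene's value is the mean of its measured probe sets, or a bound where it has none. The number of arrays limits the precision. Named were all Notch probe sets, pathway genes at 1.2-fold or more, the γ-secretase subunits and some markers of each cell type. The markers were not picked by a fixed rule, and those with the largest ratios are not all named. The genes, lists and settings were chosen with earlier results of these data known. The ratio step was tested on simulated data. Alternatives were other scalings (lowess span 0.3), floors at the 20th or the 60th percentile, no floor, and other rules for probe sets and folds. Python 3.11.15, numpy 2.4.6, pandas 2.3.3, statsmodels 0.14.6 and matplotlib 3.10.9 were used.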

Additional observations from a re-analysis of the deposited data

How the results depend on the processing

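No paired analysis was possible because each genotype has 1 array, and for the same reason no array could be left out. Of the 10 alternatives run for the group medians, 3 (the gene mean, the brightest probe set and only probe sets over the floor in both genotypes) had to return the main values, since each gene has 1 measured probe set and none has a bound. Under the other 7 the medians kept their sign, as did their difference, which intensities as deposited cannot change. The targets ranged from -0.21 to -0.057, the receptors and ligands from 0.10 to 0.19, and their difference from -0.37 to -0.16, smallest in size with no floor. Without suffixed probe sets the receptors and ligands had a median of 0.10 over 4 probe sets, 3 of them higher. With the floor lowered to the 20th percentile the median of the targets was -0.057 over 5, 4 of them lower. At that floor 5 of 7 receptor and ligand probe sets were higher. With no floor 6 of 10 receptor and ligand probe sets were higher, and 4 of 5 target probe sets lower. The number of Notch probe sets at least 1.2-fold lower, 2, became 4 with no floor, which added the dim probe sets of the receptors Notch1 and Notch4. It became 3 with the floor at the 20th percentile, 3 at 1.1-fold and 0 at 1.5-fold. The number at least 1.2-fold higher, 0, became 1 after lowess (Notch2), 1 with no floor (the dim Notch2 probe set) and 4 at 1.1-fold. The log2 ratio of Notch3 changed sign to -0.0028 as deposited, -0.041 with quantile normalization and -0.040 after lowess. The cause was not tested. Scaling moved the median of all probe sets by less than 0.1.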
